A study of Rattus norvegicus with 9 samples.

Results

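The genes described here encode enzymes that add or remove acetyl and methyl groups on histones and other proteins: lysine demethylases (Kdm), deacetylases (Hdac and the NAD-dependent sirtuins, Sirt), lysine methyltransferases (Setd, Ehmt, Ezh), arginine methyltransferases (Prmt) and lysine acetyltransferases (Kat). They were chosen by name alone, as every locus of the deposited table with a single gene name that starts with one of these 8 stems followed by a number. Of 30315 loci, 61 matched, and 58 genes were left once the lower of the loci sharing a name was dropped. They comprise 16 Kdm, 12 Hdac, 8 Setd, 7 Prmt, 6 Sirt, 5 Kat, 2 Ehmt and 2 Ezh genes. Of the 58, 54 averaged 1 FPKM or more across libraries and were tested. FPKM is a level in fragments, scaled to the length of the transcript and to the number of fragments mapped in the library. Hdac6 and Prmt8 were listed at 0 in every library, and Kdm4d and Hdac1l were below the limit. The dropped second locus of Hdac6 was also at 0 in every library. A listed 0 cannot tell an absent RNA from a locus that was not measured.

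RNA was sequenced from the renal outer medulla of 9 MCW SS rats, an inbred strain whose blood pressure rises on a high-salt diet, with 1 library per rat and 3 rats per group. The 0.4% salt rats underwent the surgery of the other groups but gave tissue before any injection or change of diet, on 0.4% NaCl. The HS_SCR rats received a scrambled GapmeR at 4 mg/kg into the kidney and ate 4% NaCl for 7 days. The HS_DT rats received GapmeRs against Dnmt3a and Tet3 at 2 mg/kg each by the same route, with 4% NaCl for 7 days. A GapmeR is an antisense oligonucleotide that directs RNase H to cut its target RNA. HS_SCR minus 0.4% salt thus joins the diet, the scrambled oligonucleotide and the elapsed time, which cannot be told apart, and no group received an oligonucleotide on 0.4% NaCl. HS_DT minus HS_SCR asks what the 2 targeting oligonucleotides change on the same diet. Age and sex were not stated in the labels. The p-values measure the spread between these rats.

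Acetylation of histone tails by Kat enzymes is a mark of open, transcribed chromatin, and Hdac and Sirt enzymes take it off. Methylation of histone lysines has effects that depend on the residue: methylation of lysine 4 of histone H3 (H3K4) marks promoters and enhancers, while methylation of H3K9 and H3K27 marks silenced chromatin. DNA methylation, which Dnmt3a lays down and Tet3 begins to remove, is read and written together with these marks, for example by de novo methyltransferases that bind histone H3 only where lysine 4 is unmethylated.

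The targeted RNAs were not lower in HS_DT than in HS_SCR. Dnmt3a was 13.4, 12.2 and 12.9 FPKM for 0.4% salt, 7.05, 5.75 and 10.3 for HS_SCR and 8.72, 10.3 and 11.02 for HS_DT, a log2 difference of 0.37 ± 0.18 (standard error, SE) between HS_DT and HS_SCR (adjusted p = 0.303). Tet3 was 9.38, 8.47 and 9.64 FPKM for 0.4% salt, 5.04, 5.47 and 8.20 for HS_SCR and 7.62, 8.54 and 7.92 for HS_DT. Directions below are therefore those of the libraries labelled HS_DT and HS_SCR. Dnmt3a was lower in HS_SCR than in 0.4% salt by a log2 difference of -0.70 (adjusted p = 0.0367), whereas Tet3 missed the threshold (adjusted p = 0.0599).

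On the first principal component, which held 37.8% of the variance, HS_SCR replicate 3 lay with its group. It stood at 28.8, and HS_SCR replicates 1 and 2 at 40.7 and 26.8. The 0.4% salt libraries lay between -38.8 and -21.6 and those of HS_DT between -20.1 and 8.22. HS_SCR replicate 3 stood apart from the other 8 libraries on the second component, which held 22.1% of the variance. There it lay at -51.5 and the others between -2.34 and 24.0, with 0.4% salt at -2.34 to 1.45 and HS_DT replicate 3 at -1.59. The rat number of HS_SCR replicate 3 belongs to the 800s, as do those of the 3 rats on 0.4% salt and of HS_DT replicate 3. The other HS_SCR and HS_DT rats have numbers in the 700s. The labels do not say what the number series stands for, and the 700s hold no rat on 0.4% salt. The summed FPKM of a library ran from 685349 to 933862. Without read counts the depth is unknown, so no counting interval is given.

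The 54 tested genes spanned a mean of 1.85 FPKM for Prmt6 to 62.0 for Hdac1, with a median of 13.9. After Hdac1, the highest were Setd3 (47.3), Sirt2 (46.7), Prmt1 (46.2), Setd8 (41.8) and Hdac2 (41.8). Setd3 methylates actin on a histidine, Setd8 methylates lysine 20 of histone H4, Sirt2 is a largely cytoplasmic deacetylase and Prmt1 is the main asymmetric arginine methyltransferase of mammalian cells. Within families the spread was wide: Hdac9 stood at 2.28 FPKM beside Hdac1, and Sirt4, a mitochondrial sirtuin, at 2.74 beside Sirt2. The library-to-library spread of most genes was small against these differences in level.

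**Figure D1:**
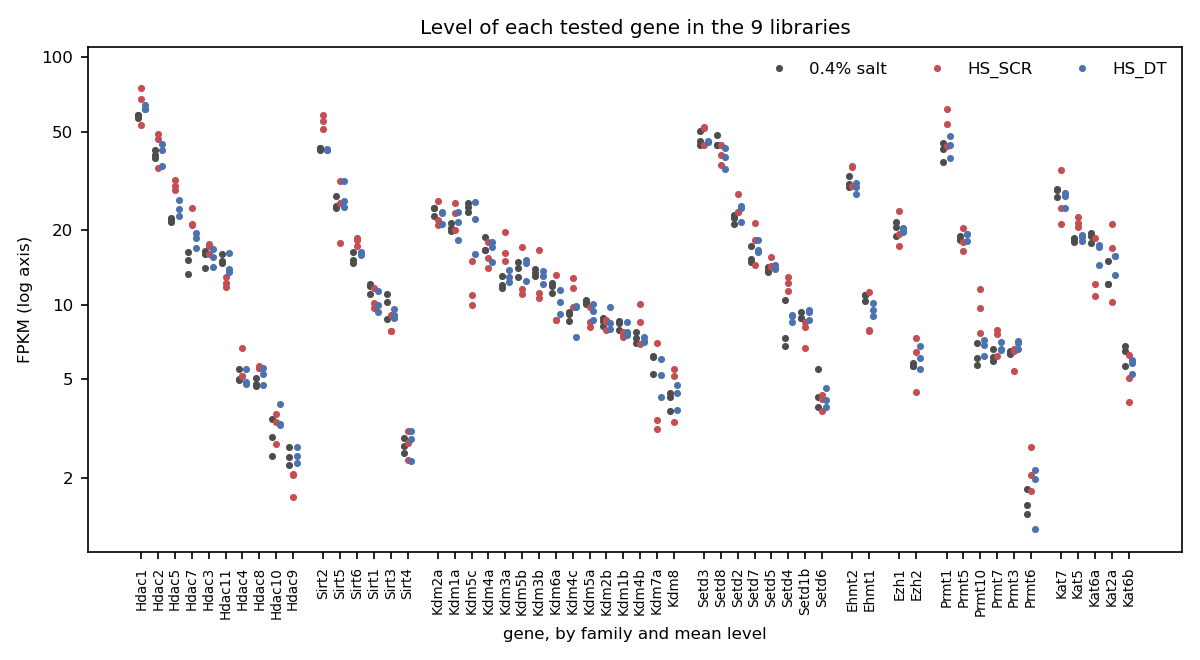
FPKM (log axis) of each of the 54 tested genes in the 9 libraries, by family and, within a family, by mean level; each dot is a library, colored by group. Levels run from Prmt6 at a mean of 1.85 to Hdac1 at 62.0, and for most genes the 3 groups overlap.

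In HS_SCR against 0.4% salt, Hdac5, Hdac7, Sirt2, Kdm3a, Setd4 and Prmt10 were higher and Kdm5c was lower. These 7 of 54 genes passed an adjusted p of 0.05 (limma, Benjamini-Hochberg over 14338 loci), where 13.1% of all tested loci did: 6 were higher, against 8.2% of all loci, and 1 was lower, against 4.88%. The count for the family as a whole was thus near that of the transcriptome, and its median log2 change of 0.07 lay near the 0.02 of all loci. Changes were also small: the median size of a change was 0.17 on the log2 scale, beside 0.23 over all loci. For 17 of the 54 genes the 3 HS_SCR libraries did not overlap the 3 on 0.4% salt, against 33.5% of all loci: 11 lay above (19.1% of all loci) and 6 below (14.5%). At an unadjusted p under 0.05 there were 13 genes, 9 higher and 4 lower, beside 32% of all loci (17.6% higher and 14.4% lower). All log2 changes are on the log2(FPKM + 1) scale, which understates the change of genes at low levels. In bulk tissue, fewer cells of a type and less RNA per cell cannot be told apart. All 7 calls were lost without 0.4% salt replicate 1 and again without 0.4% salt replicate 2, fits in which 3.12% and 2.42% of all loci were called, and in a fit of the compared groups alone only Hdac5 and Kdm5c passed.

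Among demethylases, Kdm5c fell from 24.7 ± 1.04 FPKM in 0.4% salt to 11.97 ± 2.67 in HS_SCR (SD, n = 3). Kdm5c, encoded on the X chromosome, removes methyl groups from H3K4. Its locus lies at chrX:64224348-64277719 on build rn5. It stood at 24.8, 25.7 and 23.6 FPKM for 0.4% salt, 10.9, 9.98 and 15.005 for HS_SCR and 16.04, 22.1 and 25.9 for HS_DT. Every HS_SCR library was below every other library, and the HS_DT libraries reached from just above HS_SCR to just above the 0.4% salt range. The log2 change from 0.4% salt to HS_SCR was -1.01 ± 0.19 (SE, adjusted p = 0.0149), the largest of any of the 54 genes in the fit as reported.

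The other H3K4 demethylases did not pass. Kdm5a, a paralog of Kdm5c, was at 10.4, 10.3 and 10.04 FPKM for 0.4% salt, 8.14, 8.49 and 9.81 for HS_SCR and 8.69, 9.47 and 10.1 for HS_DT (HS_SCR minus 0.4% salt -0.20 ± 0.09, adjusted p = 0.174). Since FPKM is scaled to length, the levels can be divided: Kdm5c over Kdm5a was 2.37, 2.51 and 2.35 for 0.4% salt, 1.34, 1.18 and 1.53 for HS_SCR and 1.85, 2.34 and 2.58 for HS_DT. The ratio was lower in all 3 HS_SCR libraries than in any other. Kdm1a, the flavin-dependent H3K4 demethylase of the CoREST complex, was at 20.5 ± 0.805 FPKM in 0.4% salt, 23.1 ± 2.94 in HS_SCR and 21.2 ± 2.77 in HS_DT (SD, n = 3), with overlapping ranges.

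Kdm3a was the only demethylase called higher. It removes mono- and dimethylation from H3K9 and needs oxygen, iron and 2-oxoglutarate, as the other JmjC demethylases do. The level was 11.7, 13.1 and 12.1 FPKM for 0.4% salt, 16.1, 15.1 and 19.7 for HS_SCR and 12.9, 13.8 and 12.3 for HS_DT. HS_SCR lay above both other groups without overlap, and the 0.4% salt and HS_DT ranges overlapped. HS_SCR exceeded 0.4% salt by 0.43 ± 0.11 (log2, SE, adjusted p = 0.0366). Its relative Kdm3b had overlapping groups, and Kdm3a over Kdm3b was 0.865 to 0.973 in 0.4% salt, 1.18 to 1.51 in HS_SCR and 0.900 to 1.07 in HS_DT. Kdm4c, also an H3K9 demethylase, lay above the 0.4% salt range in all HS_SCR libraries but did not pass (0.30 ± 0.13, adjusted p = 0.157). Of the 5 tested H3K9 demethylases 1 was thus called higher and none lower. Of the 5 others, which act on H3K36, H3K27 or other residues, none was called, and their changes ran from -0.38 to 0.13. The most abundant of these, the H3K36 demethylase Kdm2a, was at 24.0 ± 1.06 FPKM in 0.4% salt and 23.1 ± 2.76 in HS_SCR (SD, n = 3).

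Class IIa deacetylases have weak catalytic activity of their own and shuttle between cytoplasm and nucleus as corepressors of MEF2 transcription factors. They included 2 called genes of 4 tested, where 13.1% of all loci were called. With 4 genes the count cannot be read as a trait of the class. Hdac5 was 22.05, 21.7 and 22.3 FPKM for 0.4% salt, 30.2, 32.0 and 29.2 for HS_SCR and 24.5, 22.9 and 26.4 for HS_DT. The 3 groups did not overlap for Hdac5: HS_SCR was highest and HS_DT lay between. HS_SCR exceeded 0.4% salt by 0.45 ± 0.08 (adjusted p = 0.0116), and the locus is at chr10:89927485-89938345 (rn5). Hdac7 was 15.2, 13.3 and 16.4 FPKM for 0.4% salt, 21.2, 21.1 and 24.7 for HS_SCR and 19.5, 18.7 and 16.99 for HS_DT, the same order of groups and again with no overlap. Its change between HS_SCR and 0.4% salt was 0.55 ± 0.10 (adjusted p = 0.0156). The Hdac7 locus, chr7:139463218-139510579 (rn5), overlaps that of Slc48a1, and as no label states whether counting used strand, reads of the pair may not be separable. The other class IIa members did not pass, Hdac4 with a change of 0.11 and Hdac9 with -0.24.

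Class I deacetylases, of which Hdac1 and Hdac2 serve the NuRD and Sin3 complexes, showed no call among 4 tested, with changes between 0.09 and 0.17. Hdac1 was 56.8, 58.4 and 58.6 FPKM for 0.4% salt, 75.4, 67.8 and 53.1 for HS_SCR and 64.4, 61.8 and 61.9 for HS_DT. HS_SCR replicates 1 and 2 were the highest of all libraries and replicate 3 was the lowest. Hdac2 had the same arrangement within HS_SCR (46.7, 48.8 and 35.6 FPKM, against 42.3, 39.2 and 40.1 in 0.4% salt and 44.4, 42.3 and 36.4 in HS_DT). Hdac1 over Hdac2 was 1.43 ± 0.0784 in 0.4% salt, 1.498 ± 0.112 in HS_SCR and 1.54 ± 0.143 in HS_DT (SD, n = 3), so the balance of the 2 paralogs differed by about the spread of single libraries. Neither of the 2 remaining tested Hdac genes was called: Hdac10 differed by 0.10 and Hdac11 by -0.29.

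Of 6 sirtuins, Sirt2 was called. Sirt2 removes acetyl groups from tubulin and other proteins and from lysine 16 of histone H4 at mitosis. It was 43.2, 42.8 and 42.2 FPKM for 0.4% salt, 51.2, 58.2 and 55.5 for HS_SCR and 42.5, 42.3 and 42.2 for HS_DT. All HS_SCR libraries were above the rest, while the 6 other libraries lay within 1 FPKM of each other. HS_SCR exceeded 0.4% salt by 0.35 ± 0.07 (log2, SE, adjusted p = 0.0170), and HS_DT minus 0.4% salt was -0.01 with a 95% interval from -0.17 to 0.15. The Sirt2 locus at chr1:88122205-88153092 (rn5) overlaps Nfkbib. Sirt5, the mitochondrial desuccinylase, was the second most abundant sirtuin and did not pass (31.7, 25.8 and 17.8 FPKM in HS_SCR, 27.4, 24.7 and 25.1 in 0.4% salt). Sirt1, the nuclear deacetylase of p53 and PGC-1alpha, was 11.02, 12.1 and 11.9 FPKM for 0.4% salt, 10.1, 9.73 and 11.7 for HS_SCR and 9.38, 9.96 and 11.3 for HS_DT, also without a call.

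**Figure D2:**
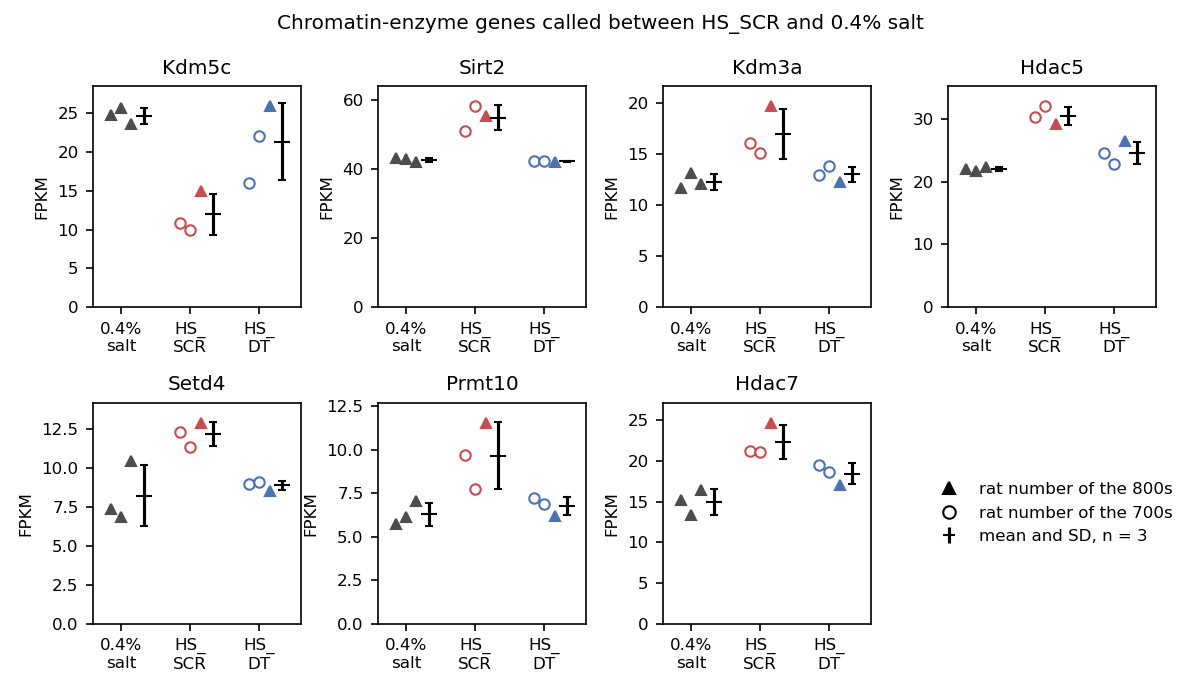
FPKM in each library for the 7 genes called between HS_SCR and 0.4% salt; symbols are single rats, filled triangles for rat numbers in the 800s and open circles for the 700s, and the bar beside each group is the mean with its SD (n = 3). Kdm5c is lowest in HS_SCR (9.98 to 15.005 FPKM) and the other 6 genes are highest there, with Sirt2 at 51.2 to 58.2 FPKM against 42.2 to 43.2 in the other libraries.

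Of the 12 SET-domain methyltransferases, Setd4 was called. It is a SET-domain protein related to Setd3. Its level was 7.34, 6.84 and 10.4 FPKM for 0.4% salt, 12.3, 11.4 and 12.9 for HS_SCR and 8.97, 9.12 and 8.55 for HS_DT. The HS_SCR libraries lay above all others, with 0.4% salt replicate 3 the nearest. The change was 0.54 ± 0.14 (adjusted p = 0.0401). The more abundant Setd3 and Setd8 did not pass: Setd3 was at 46.8 ± 3.19 FPKM in 0.4% salt, 49.6 ± 4.47 in HS_SCR and 45.5 ± 0.249 in HS_DT, and Setd8 at 45.7 ± 2.56, 40.4 ± 3.86 and 39.2 ± 3.72 (SD, n = 3).

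Ehmt1 and Ehmt2 form the heterodimer that dimethylates H3K9, and neither was called. Ehmt1 was 10.4, 10.96 and 10.97 FPKM for 0.4% salt, 7.86, 7.89 and 11.3 for HS_SCR and 9.03, 9.54 and 10.1 for HS_DT. Ehmt2 was 30.0, 30.9 and 33.2 FPKM for 0.4% salt, 36.1, 36.3 and 30.2 for HS_SCR and 28.0, 29.8 and 31.0 for HS_DT. Ehmt2 over Ehmt1 was 2.89, 2.81 and 3.03 in 0.4% salt and 3.10, 3.13 and 3.06 in HS_DT, while HS_SCR split into 4.59 and 4.602 in replicates 1 and 2 and 2.68 in replicate 3. HS_SCR thus held both the highest and the lowest of the 9 ratios.

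Ezh1 and Ezh2 are the alternative catalytic subunits of Polycomb repressive complex 2, which methylates H3K27, Ezh2 being the form of dividing cells. Ezh1 was the more abundant in every library. It stood at 20.4 ± 1.27 FPKM in 0.4% salt, 20.2 ± 3.38 in HS_SCR and 19.98 ± 0.368 in HS_DT (SD, n = 3), beside 5.72 ± 0.0932, 6.08 ± 1.49 and 6.14 ± 0.659 for Ezh2. Ezh1 over Ezh2 was 3.63, 3.80 and 3.26 in 0.4% salt and 3.61, 2.99 and 3.23 in HS_DT, but 2.35, 3.00 and 5.37 in HS_SCR. Group means of both genes were close and HS_SCR was the most variable group, with replicate 3 the highest of all libraries in this ratio. The Ezh2 locus overlaps that of Cul1.

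Arginine methyltransferases had 1 call among 6 tested genes. Prmt10, which RefSeq names Prmt9 and which methylates a splicing factor, was 5.70, 6.12 and 7.04 FPKM for 0.4% salt, 9.70, 7.72 and 11.6 for HS_SCR and 7.24, 6.89 and 6.20 for HS_DT. HS_SCR lay above both other groups, and those overlapped. The change was 0.54 ± 0.14 (adjusted p = 0.0421). Prmt1 was 42.6, 37.7 and 44.9 FPKM for 0.4% salt, 61.7, 53.9 and 43.8 for HS_SCR and 48.0, 44.4 and 39.2 for HS_DT; its mean change of 0.33 ± 0.14 did not pass (adjusted p = 0.133), and HS_SCR replicate 3 lay within the 0.4% salt range. Prmt5, the main symmetric arginine methyltransferase, was nearly level at 18.5 ± 0.340, 18.3 ± 1.98 and 18.9 ± 0.650 FPKM in 0.4% salt, HS_SCR and HS_DT (SD, n = 3). For Prmt5 the 95% interval of HS_SCR minus 0.4% salt ran from -0.23 to 0.18.

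None of the 5 acetyltransferases was called. Kat5, the catalytic subunit of the NuA4 (Tip60) complex, was 18.0, 18.5 and 18.4 FPKM for 0.4% salt, 21.4, 20.7 and 22.7 for HS_SCR and 18.1, 19.1 and 18.7 for HS_DT. HS_SCR did not overlap the other groups, at 0.22 ± 0.07 above 0.4% salt (adjusted p = 0.0653). Kat6a, an H3K23 acetyltransferase of the MYST family, was 19.0, 19.5 and 17.8 FPKM for 0.4% salt, 10.8, 12.1 and 18.6 for HS_SCR and 14.5, 17.1 and 17.4 for HS_DT (-0.45 ± 0.18, adjusted p = 0.120). HS_SCR replicate 3 lay inside the 0.4% salt range and the other HS_SCR libraries were the lowest of the 9. Kat7, which acetylates H3K14 and histone H4, was 29.3, 29.0 and 27.3 FPKM in 0.4% salt and 21.2, 24.6 and 35.0 in HS_SCR, where replicates 1 and 2 were below the 0.4% salt range and replicate 3 above it. The Kat7 locus spans 273 kb and overlaps 5 other loci, the tested Tac4 and Itga3 among them, so reads of these genes may not be separable.

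The promoters of the 4 called genes with the smallest adjusted p are shown because Dnmt3a and Tet3 act on cytosines followed by guanine (CG). Each line gives the 250 bases before a RefSeq transcription start on build GRCr8, on the strand of the gene, with CG in capitals. Where a gene had several entries, the first listed was used, and other starts were not examined.
Hdac5: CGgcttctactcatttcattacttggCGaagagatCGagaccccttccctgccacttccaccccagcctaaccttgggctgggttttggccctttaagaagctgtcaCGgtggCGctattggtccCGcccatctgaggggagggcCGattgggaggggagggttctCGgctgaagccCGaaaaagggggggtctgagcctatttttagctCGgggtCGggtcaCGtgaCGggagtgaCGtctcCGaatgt
Hdac7: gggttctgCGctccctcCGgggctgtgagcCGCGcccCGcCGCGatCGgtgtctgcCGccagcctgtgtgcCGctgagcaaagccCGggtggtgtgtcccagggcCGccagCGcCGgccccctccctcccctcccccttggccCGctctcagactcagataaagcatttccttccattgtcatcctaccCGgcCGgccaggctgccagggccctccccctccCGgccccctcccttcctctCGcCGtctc
Kdm5c: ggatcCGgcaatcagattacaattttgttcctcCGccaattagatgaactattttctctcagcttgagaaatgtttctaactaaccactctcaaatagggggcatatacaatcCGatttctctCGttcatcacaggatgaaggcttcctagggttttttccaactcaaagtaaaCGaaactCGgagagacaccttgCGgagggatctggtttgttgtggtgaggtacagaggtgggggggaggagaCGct
Sirt2: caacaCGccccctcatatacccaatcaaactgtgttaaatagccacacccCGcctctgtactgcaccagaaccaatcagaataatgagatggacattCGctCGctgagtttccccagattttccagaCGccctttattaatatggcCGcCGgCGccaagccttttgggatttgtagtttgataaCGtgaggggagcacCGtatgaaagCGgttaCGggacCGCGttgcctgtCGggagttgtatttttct
The windows are chr10:87688055-87688304 (minus strand) for Hdac5, chr7:130841018-130841267 (minus) for Hdac7, chrX:24824624-24824873 (plus) for Kdm5c and chr1:93181222-93181471 (plus) for Sirt2. They hold 15, 20, 8 and 15 CG, in that order, against a median of 6 over all 27457 promoters of that length. Kdm5c has the fewest of the 4, and no relation of CG number to the changes was tested. A promoter entry was matched for 48 of the 58 genes, and these had a median of 18 CG (2 to 42). Their methylation was not measured in these libraries.

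Short motifs were searched on both strands of the same windows, chosen after the sequences had been read. The GC box GGGCGG occurred in 28 of the 48 promoters and in 32.4% of all promoters, and CCAAT in 22 of 48 and in 34.3%. The E-box CACGTG was found in 6 of the 48 (5.79% of all), the CREB-type motif TGACGT in 7 (7.25%) and the MEF2 motif in 1 (3.07%). Of the promoters printed, that of Hdac5 held all of these motifs, including the MEF2 motif, those of Kdm5c and Sirt2 held CCAAT only, and that of Hdac7 held none. A match describes the letters and is not a bound site.

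Between HS_DT and HS_SCR, none of the 54 genes passed the adjusted threshold (limma), where 0.00697% of all tested loci (1 locus) did. At an unadjusted p under 0.05 there were 10 of 54, 2 higher and 8 lower in HS_DT, beside 19.1% of all loci (8.06% higher and 11% lower). The ranges of the groups did not overlap for 13 of 54 genes, 5 above and 8 below HS_SCR, against 21.6% of all loci (9.1% above and 12.5% below). The 7 genes called above are among these 13, but they were singled out through the same HS_SCR libraries, so this adds nothing to them. Kdm5c was higher in HS_DT by 0.78 ± 0.19 on the log2 scale with a 95% interval from 0.35 to 1.21 (adjusted p = 0.0898). Sirt2 differed by -0.37 ± 0.07 (adjusted p = 0.0644) and Hdac5 by -0.30 ± 0.08 (adjusted p = 0.103). For Kdm3a, Setd4, Prmt10 and Hdac7 the differences were -0.35, -0.42, -0.44 and -0.26, with adjusted p from 0.147 to 0.224.

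Without HS_SCR replicate 3, 6 of the 54 genes passed in HS_DT minus HS_SCR, where 16% of all loci did: Kat6a, Kdm5c and Kdm7a higher, and Ehmt2, Hdac5 and Sirt2 lower. In that fit Kdm5c differed by 0.94 (adjusted p = 0.0168), Sirt2 by -0.36 (adjusted p = 0.0173) and Hdac5 by -0.33 (adjusted p = 0.0265). With the number series added as a term, Kdm5c and Sirt2 passed, among 2.94% of all loci. Within the 700s, HS_DT minus HS_SCR was 0.80 for Kdm5c, -0.36 for Sirt2 and -0.38 for Hdac5 (2 libraries each), and within the 800s it was 0.75, -0.39 and -0.14 (1 library each, so no test). Kdm5c, Sirt2 and Hdac5 were singled out above through the same HS_SCR libraries, so these values add nothing to their calls.

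HS_DT and 0.4% salt differed little in these genes. None was called (limma; 0% of all loci), and at an unadjusted p under 0.05 only Hdac7 stood out, at 0.28 with a 95% interval from 0.05 to 0.52 (adjusted p = 0.565), where 7.49% of all loci did (5.2% higher and 2.29% lower). The ranges were apart for 7 of 54 genes, against 23.8% of all loci: Hdac1, Hdac5, Hdac7 and Prmt3 above 0.4% salt (14.2% of all loci), and Ehmt1, Kat6a and Setd8 below (9.64%). Prmt3, a ribosomal protein methyltransferase, was 6.35, 6.48 and 6.41 FPKM in 0.4% salt and 7.17, 7.04 and 6.62 in HS_DT. Changes ran from -0.23 for Kdm5c to 0.28 for Hdac7, with a median size of 0.08 beside 0.12 for all loci. The Kdm5c value was -0.04 without HS_DT replicate 1 and 0.08 with the number series added as a term. The 3 comparisons share their libraries pairwise and are not independent of each other.

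**Figure D3:**
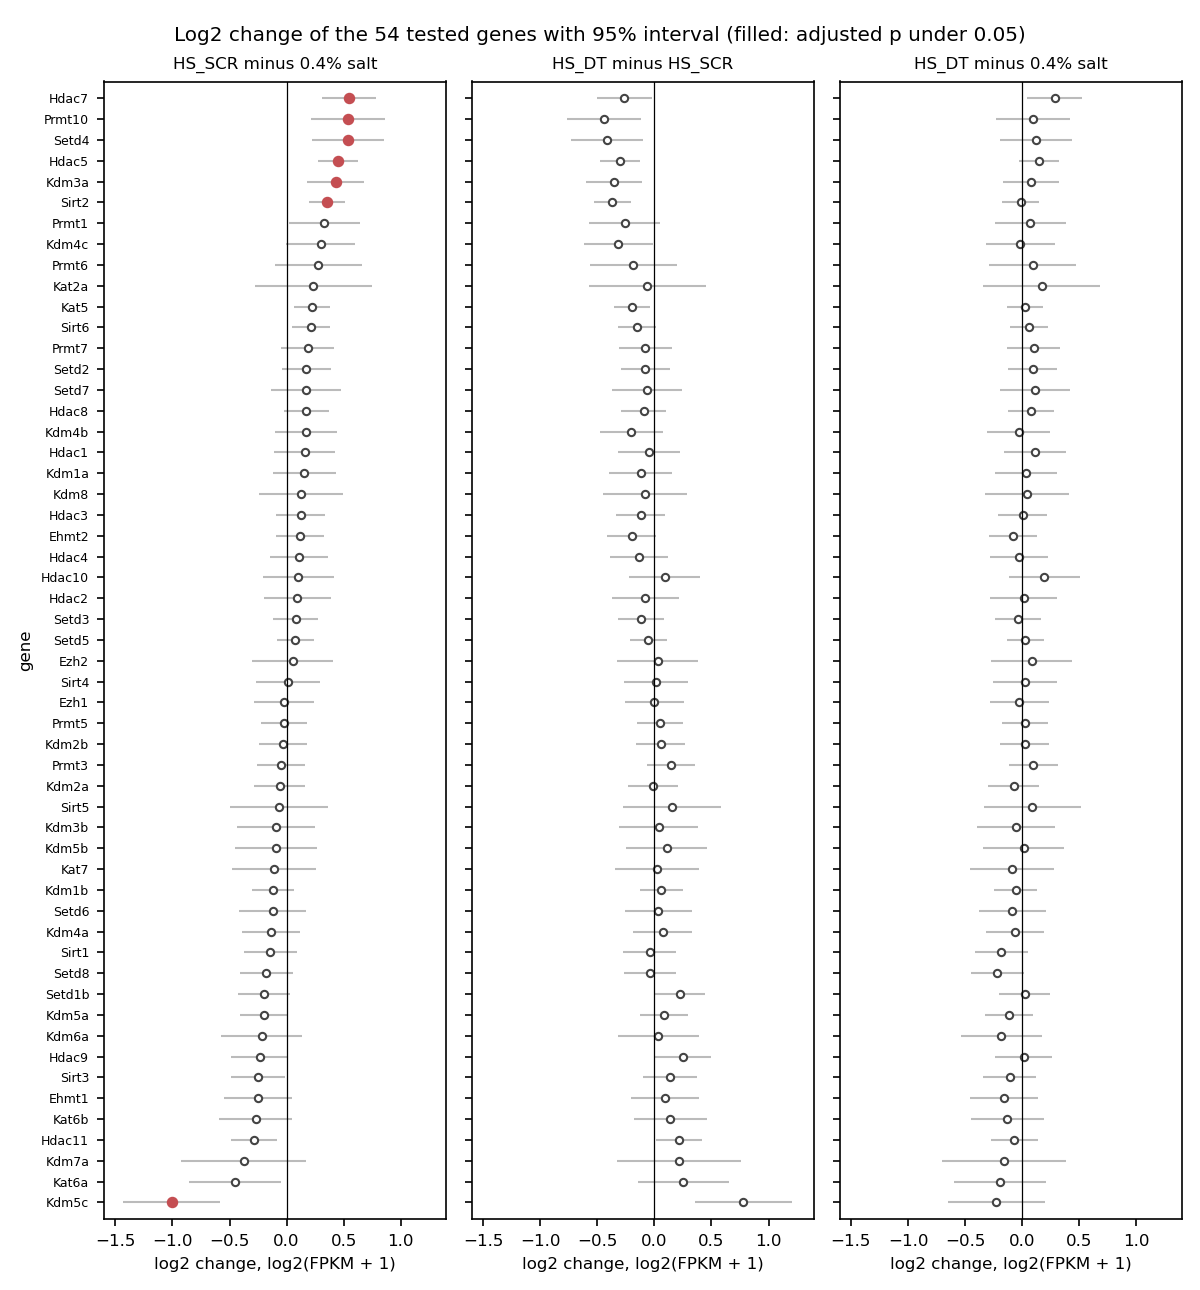
Log2 change of each of the 54 tested genes in the 3 comparisons, with its 95% interval; genes are ordered by HS_SCR minus 0.4% salt and filled red circles passed an adjusted p of 0.05. Calls are seen in HS_SCR minus 0.4% salt alone, from -1.01 for Kdm5c to 0.55 for Hdac7, and most intervals in the other comparisons include 0.

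For many of these genes, and for many of all loci, the HS_SCR libraries did not all lie on the same side of the 0.4% salt range. In HS_SCR replicates 1 and 2, the rats numbered in the 700s, 41 of 54 genes lay on the same side outside the 0.4% salt range in both libraries (75.9%, beside 62.6% of all loci). In replicate 3, the rat from the 800s, 17 of the 41 lay outside on the same side, 10 lay inside the range and 14 lay outside on the opposite side. These were 41.5%, 24.4% and 34.1% of the 41 genes. Of the 8978 loci of the whole table that met the same condition in replicates 1 and 2, 53.5%, 19.5% and 27.0% fell into these classes. Ezh2, Hdac1, Hdac2, Kat2a, Kdm8, Prmt3 and Setd7 were above the range in replicates 1 and 2 and below it in replicate 3. Ehmt1, Kat7, Kdm2a, Kdm3b, Kdm5b, Kdm6a and Kdm7a had the reverse arrangement. In HS_DT, 22 of 54 genes were outside on the same side in replicates 1 and 2 (40.7%, beside 43.4% of all loci), and replicate 3 was on the opposite side for 6 of them (27.3%, beside 11.3% of the 6223 such loci). These shares were not tested.

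The 7 called genes were among the 17 that kept their side, which a call over the same 3 libraries makes likely, so it supports nothing. Replicate 3 of HS_SCR alone differed from the 0.4% salt mean, all within the 800s, by -0.68 for Kdm5c, 0.39 for Hdac5, 0.69 for Hdac7, 0.37 for Sirt2, 0.64 for Kdm3a, 0.62 for Setd4 and 0.79 for Prmt10 on the log2 scale. Without that library the changes were -1.17, 0.48, 0.48, 0.35, 0.32, 0.50 and 0.41 in the same order, and all 7 passed. In that fit 21 of the 54 genes passed, 12 higher and 9 lower, where 36.2% of all loci did. With the number series added as a term, Hdac5, Hdac7, Sirt2 and Kdm5c passed, among 9.2% of all loci.

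**Figure D4:**
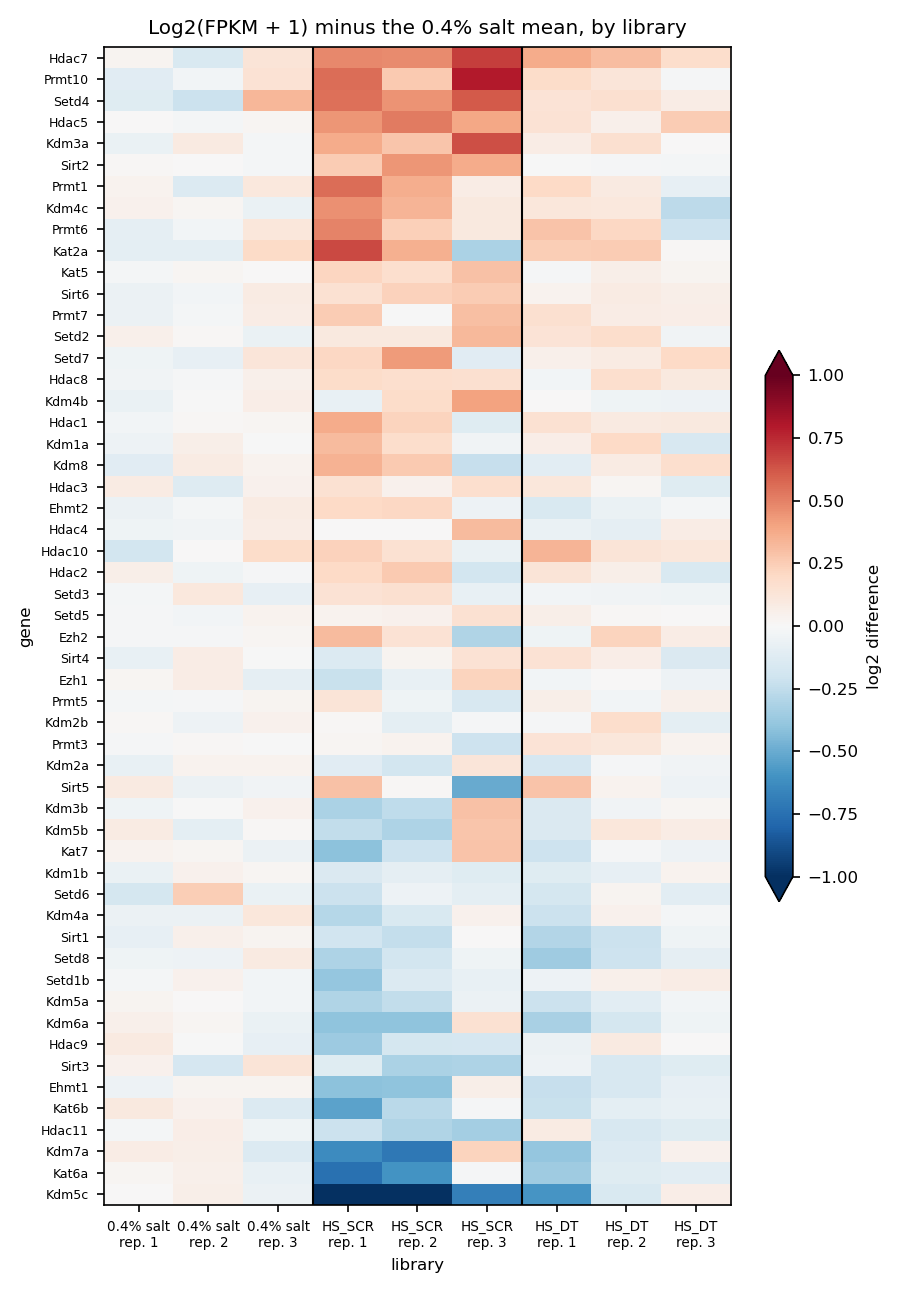
Log2(FPKM + 1) of each tested gene in each library minus its mean over the 3 libraries on 0.4% salt; red is above that mean and blue below, and the scale ends at 1 in either direction. Genes follow the change between HS_SCR and 0.4% salt, with Hdac7 at the top and Kdm5c, at -1.01, at the bottom; HS_SCR replicate 3 takes the opposite colour to replicates 1 and 2 for many genes in the middle of the plot.

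Partners of these enzymes were read from a list of other chromatin writers and erasers and of subunits of the Polycomb, deacetylase, acetyltransferase and COMPASS complexes. Of 91 matched genes 89 were tested, and in HS_SCR against 0.4% salt 6 were higher and 3 lower (10.1%, beside 13.1% of all loci), with a median change of 0.05. Among the partners of deacetylase complexes, Sin3b, Mta1 and Mbd2 were higher and Chd3 was lower. Chd3, a nucleosome-remodelling ATPase of the NuRD complex to which Hdac1 and Hdac2 belong, was 26.4, 25.6 and 25.6 FPKM for 0.4% salt, 19.3, 19.7 and 18.3 for HS_SCR and 25.5, 25.7 and 24.3 for HS_DT. All 3 HS_SCR libraries, replicate 3 included, were below the other 6. The change was -0.42 ± 0.07 (adjusted p = 0.00958), and it passed whichever single library was left out, with adjusted p from 0.00319 to 0.0485.

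Sin3b, a scaffold of the Sin3 deacetylase complex, was 47.0, 46.5 and 49.7 FPKM for 0.4% salt, 61.6, 59.1 and 83.5 for HS_SCR and 58.1, 49.7 and 53.1 for HS_DT (0.49 ± 0.13, adjusted p = 0.0442). Dmap1, a subunit of the NuA4 complex of Kat5 that also binds Dnmt1, was 9.35, 8.98 and 10.05 FPKM for 0.4% salt, 13.7, 12.9 and 11.4 for HS_SCR and 13.2, 11.2 and 10.99 for HS_DT (0.38 ± 0.10, adjusted p = 0.0417). For Dmap1 both groups on 4% NaCl lay above 0.4% salt. Pcgf1, of a Polycomb repressive complex 1 variant, was 6.65, 7.30 and 7.15 FPKM in 0.4% salt and 10.3, 8.35 and 9.85 in HS_SCR (0.38 ± 0.10, adjusted p = 0.0357). Smyd5 was also higher and Kmt2c, an H3K4 methyltransferase, lower, and none of the 8 COMPASS partners was called. The calls other than Chd3 were not kept in every fit that left out a library. In HS_DT minus HS_SCR no partner passed, and Chd3 came nearest at 0.38 ± 0.07 (adjusted p = 0.0644).

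Markers of some cell types moved between HS_SCR and 0.4% salt. Of 8 macrophage and myeloid markers 6 were called higher in HS_SCR than in 0.4% salt, and their summed level was 392 to 506 FPKM in 0.4% salt, 1020.1 to 1116 in HS_SCR and 599.9 to 704 in HS_DT. The 4 erythroid and both neutrophil markers were all called higher, with erythroid sums of 496 to 769, 1339 to 8718 and 1833 to 2517 FPKM. Proximal tubule markers, 5 of 11 tested being called lower, summed to 679 to 1791 FPKM in 0.4% salt, 37.5 to 336 in HS_SCR and 251 to 1097 in HS_DT. Those of the thick ascending limb, the defining tubule of this tissue, were 2783 to 4385, 1233 to 3135 and 2480 to 3411 FPKM, with 4 of 10 called lower. No marker of these 5 lists was at 0 in all libraries. In the same comparison, none of 7 collecting duct principal cell, 4 intercalated cell and 7 proliferating cell markers tested was called. Of the lymphocyte markers 1 of 4 tested was called higher, and of the endothelial markers 2 of 6. With a proximal tubule score as a covariate, neither Kdm5c nor any other of the 54 genes passed, and no locus did. The score is the mean log2(FPKM + 1) of its tested markers. It was 5.09, 6.57 and 5.39 in 0.4% salt and 1.67, 4.04 and 1.95 in HS_SCR, without overlap. That fit therefore cannot separate the score from the group. The changes from 0.4% salt to HS_SCR in it were -0.87 for Kdm5c, 0.58 for Hdac5, 0.32 for Hdac7 and 0.43 for Sirt2. Those of Kdm3a, Setd4 and Prmt10 were 0.30, 0.33 and 0.20. The part of any cell type in the changes of these genes was not tested.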

How the data were processed

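RNA of the outer medulla was measured in 9 libraries. The authors deposited FPKM values, made with Trim Galore 0.2.5 and Cufflinks 2.2.1 on build rn5 per the submitters' processing notes; the aligner, annotation, strandedness and depth were not given in the sources used here. Columns were matched to rats by the number in the titles, and 1 column that repeats HS_DT replicate 3 at all 30315 loci was not used. The 14338 loci averaging 1 FPKM or more were fitted as log2(FPKM + 1) with limma 3.58.1 (limma-trend, R 4.3.3) in 1 model of 3 groups (6 residual degrees of freedom), two-sided, with Benjamini-Hochberg adjustment over all tested loci; the script was tested on simulated data. Called means an adjusted p under 0.05. Genes named with values were those called, the 2 most abundant of each family, the smallest p of each family and comparison, and up to 4 partners (1 further partner gene is not reported here); Hdac10, Hdac4, Hdac9, Kdm3b and other genes named outside this rule were chosen after their values were seen. The members and lists were chosen with earlier results of these data known. Replicate numbers were checked for pairing: of 9 same-number pairs of libraries 5 correlated above 0.1 (-0.08 to 0.26, and -0.31 to 0.24 for other pairs). This does not show the rats to be unpaired. As the labels do not say that the number pairs rats, it was used as a block in an alternative only. Promoters are from RefSeq (GRCr8), and no coordinates were converted between builds. Alternatives varied the pseudocount, filter, scaling, weights, covariates, groups fitted and libraries.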

Additional observations from a re-analysis of the deposited data

How the results depend on the processing

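In HS_SCR minus 0.4% salt, the 6 genes called higher became 3 without a filter on low values (6.73% of all loci called in that fit, in either direction), 3 with median-ratio rescaling (12.4%), 3 with a term for the rat-number series (9.2%), 1 in a fit of the 2 compared groups only (3.25%) and 0 with the proximal tubule score (0%), and ranged from 0 to 12 over the 9 fits that each left out a library. The count was 6 with either smaller pseudocount (13.1% of all loci in each). It was 7 at a mean of at least 5 FPKM (16.7%), 5 after quantile normalization (11%) and 8 with library weights (28%). The estimate of the library weights stopped before it reached its convergence tolerance, which limits every value given with them. The 1 gene called lower became 2 with median-ratio rescaling (Hdac11 joined Kdm5c), 6 with library weights and 0 with the proximal tubule score, and ranged from 0 to 9 when a library was left out. In HS_DT minus HS_SCR, the 0 genes called higher became 2 with library weights (10.4% of all loci) and 1 with the series factor (2.94%), and 0 to 3 when a library was left out. The 0 called lower became 1 at a mean of at least 5 FPKM (1.49%), 2 with library weights and 1 with the series factor, and 0 to 3 when a library was left out. In HS_DT minus 0.4% salt, 0 higher became 1 (Hdac7) with library weights (12.6% of all loci), and none was lower in any fit. Of the fits without a library, the highest counts came from leaving out HS_SCR replicate 3. The cause was not tested.

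With the replicate number as a block, 13.3% of all loci were called between HS_SCR and 0.4% salt. Among the 54 genes, 4 were called higher in HS_SCR (Hdac5, Hdac7, Setd4 and Sirt2) and 1 lower (Kdm5c). None was called in the other comparisons, where 0% of all loci were. Over the fits without a library, the change of Kdm5c ran from -1.17 to -0.90 (adjusted p 0.0032 to 0.0668), of Hdac5 from 0.42 to 0.48 (0.00355 to 0.0568), of Hdac7 from 0.47 to 0.61 (0.00976 to 0.0677) and of Sirt2 from 0.31 to 0.40 (0.0078 to 0.069). Kdm3a, Setd4 and Prmt10 each passed in 2 of the 9. The 7 changes called in HS_SCR minus 0.4% salt kept their sign under these alternatives. Among differences of the same genes in HS_DT minus 0.4% salt, none of them called, Kdm5c went from -0.23 to 0.08 with the series factor, and with the proximal tubule score Prmt10 went from 0.10 to -0.02 and Sirt2 from -0.01 to 0.01. Depth is unknown, so the counting error of the low Hdac9, Sirt4 and Prmt6 could not be given.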

Other observations

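Another 4 loci carry the name of such an enzyme together with that of a neighbour, so their FPKM cannot be assigned to either gene, and they were not counted. The locus named Mir678,Prmt2 (chr20:15308993-15366991, rn5) was 30.0, 32.2 and 25.8 FPKM for 0.4% salt, 39.0, 41.0 and 36.3 for HS_SCR and 33.7, 33.1 and 29.8 for HS_DT. It was called higher in HS_SCR than in 0.4% salt, by 0.39 ± 0.10 on the log2 scale (limma, adjusted p = 0.0368), and the HS_SCR libraries lay above all others. The locus named Mafg,Sirt7 was 27.1, 27.6 and 29.1 FPKM in 0.4% salt and 30.1, 32.2 and 35.4 in HS_SCR, without overlap, and did not pass (0.21 ± 0.08, adjusted p = 0.117). The loci named Kdm6b,Tmem88 and Bckdk,Kat8 differed by 0.13 and -0.08 and did not pass. Kdm6b removes methyl groups from H3K27, Kat8 acetylates lysine 16 of histone H4, and Sirt7 is a nucleolar sirtuin.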
